A study of Mus musculus with 8 samples.

Results

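Chromosome 8 of the mouse was followed through 8 cultures of embryonic stem (ES) cells, by the transcripts of 1141 genes. A gene was included when the array files placed its probe on chromosome 8 and the probe was well above background on all 8 arrays, with the brightest probe taken for each gene name. The same filter kept 20118 genes on the 19 autosomes, so that 18977 genes of the other 18 autosomes served as the background. The chromosome was chosen by its measured shifts between these arrays, and those shifts are therefore given as a description, without a test.

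The study set wild-type ES cells beside ES cells that carry the R141C missense mutation in 1 of their copies of Nkx2-5, a homeobox factor of the developing heart. Cells were taken as undifferentiated cultures at day 0 or, at day 6, as embryoid bodies grown without LIF in hanging drops and then in suspension, and plated on gelatin for the last day. Each of the 4 groups (WT day 0, R141C day 0, WT day 6 and R141C day 6) had 2 biological replicates. The labels name no clone, passage or second line for either genotype, so a difference between genotypes cannot be told apart from a difference between lines. Total RNA was labelled with Cy3 and hybridized to 1 array per culture. All 8 arrays lay on 1 slide and were scanned together. Replicate 1 of each group lay in row 1 or 3 of the slide and replicate 2 in row 2 or 4, so row and replicate cannot be told apart. Wild type lay in rows 1 and 2 and R141C in rows 3 and 4, and day 0 lay in column 1 and day 6 in column 2, so that position on the slide cannot be told apart from genotype or day either.

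Mouse ES cell cultures are known to gain chromosome 8 recurrently during passage, and cells with the extra copy can outgrow the others. In cells with an extra chromosome the transcripts of its genes generally rise together, each by a small factor. Chromosome 8 carries genes for DNA replication (Mcm5, Cdt1), a ribosomal protein (Rpl13), respiratory chain subunits (Cox4i1, Ndufa13), the stem cell factor Zfp42 (also called Rex1), and heart and vessel regulators (Hand2, Foxf1, Irx3, Ednra). DNA copy number was not analysed here. In bulk RNA, a higher level in every cell and a larger share of cells with a high level cannot be told apart.

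Each of the 1141 genes was measured with a probe of 60 bases, placed on mm9 by the files. The probes below are those of genes the results turn on, in order along the chromosome, and are given in the letters of the files in lower case. Hmgb2, Sin3b, Prmt7, Cox4i1, Klhdc4, Cdt1 and Tomm20 are examples of the difference between replicates, Zfp42, Foxf1 and Smpd3 of the tests between groups, and Gapdh of a probe whose placement is in doubt.
Zfp42 (chr8:44380667-44380726, minus strand): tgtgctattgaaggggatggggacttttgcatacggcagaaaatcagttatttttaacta
Hmgb2 (chr8:59992929-59992988, plus strand): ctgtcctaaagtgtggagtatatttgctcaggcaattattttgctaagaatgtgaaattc
Sin3b (chr8:75263729-75263788, plus strand): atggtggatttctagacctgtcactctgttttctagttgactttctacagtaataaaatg
Gapdh (chr8:94212520-94212579, minus strand): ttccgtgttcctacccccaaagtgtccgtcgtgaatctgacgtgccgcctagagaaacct
Prmt7 (chr8:108775504-108775563, plus strand): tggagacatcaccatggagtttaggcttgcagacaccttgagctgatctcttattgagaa
Smpd3 (chr8:108776790-108776849, minus strand): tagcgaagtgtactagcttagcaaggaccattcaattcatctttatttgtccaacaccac
Cox4i1 (chr8:123197924-123197983, plus strand): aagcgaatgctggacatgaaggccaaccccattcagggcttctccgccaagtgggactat
Foxf1 (chr8:123611944-123612003, plus strand): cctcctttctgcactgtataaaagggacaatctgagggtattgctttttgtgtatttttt
Klhdc4 (chr8:124320244-124320303, minus strand): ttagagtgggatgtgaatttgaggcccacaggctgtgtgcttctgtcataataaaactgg
Cdt1 (chr8:125096893-125096952, plus strand): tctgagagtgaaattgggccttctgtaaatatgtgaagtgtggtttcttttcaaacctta
Tomm20 (chr8:129458446-129458505, minus strand): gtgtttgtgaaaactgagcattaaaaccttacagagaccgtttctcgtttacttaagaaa
Of the 1141 names, 799 matched the RefSeq table of current mouse genes, which placed 798 of them on chromosome 8. The exception was Gapdh, a glycolytic enzyme whose gene that table puts on another chromosome, so the Gapdh probe is not named as a chromosome 8 gene below, although it is counted as 1 of the 1141. RefSeq lists 762 of the 1141 as protein-coding, another 174 were probes for noncoding RNA intervals, and 205 were other transcripts.

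The filter left out 583 of 1724 chromosome 8 names. Of these, 59 were well above background on 7 arrays, 289 on 1 to 6 arrays and 235 on none. Just inside stood Prss54, the dimmest included gene with a symbol, with a mean log2 signal of -4.80. Just outside stood Hand2, a heart factor with a mean of -1.65, which was well above background on 7 arrays. Log2 signals here are relative to the 75th percentile of each array, which was set to 0.

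Chromosome 8 as a whole stood higher in replicate 1 than in replicate 2 of all 4 groups. The median log2 signal of the chromosome 8 genes, minus that of the other autosomes' genes on the same array, was 0.267 and -0.117 in wild type at day 0 (replicate 1, then replicate 2). It was 0.208 and -0.150 in R141C at day 0. The day 6 values were 0.463 and 0.228 in wild type, and 0.324 and 0.015 in R141C. Within each day both replicate 1 arrays stood above both replicate 2 arrays, whatever the genotype.

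To compare the arrays gene by gene, each gene's signal was set against the mean of the other 3 arrays of its day, and the median over chromosome 8 was taken minus the median over the other autosomes. At day 0 this shift was 0.232 (1.17-fold) in wild-type replicate 1 and -0.142 (0.906-fold) in replicate 2. In R141C it was 0.192 (1.14-fold) and -0.206 (0.867-fold). At day 6 wild-type replicate 1 stood at 0.196 (1.15-fold) and replicate 2 at -0.010 (0.993-fold), and R141C at 0.118 (1.09-fold) and -0.300 (0.812-fold). Since each array is set against the others of its day, 1 array that stands apart moves the rest the other way. Without R141C replicate 2 at day 6, the R141C replicate 1 shift of that day was 0.022, and the wild-type shifts were 0.108 and -0.128. Without wild-type replicate 1 at day 6, R141C replicate 1 stood at 0.207 and wild-type replicate 2 at 0.051, and without R141C replicate 1 the latter stood at 0.028. At day 0, leaving out R141C replicate 2 gave 0.145 and -0.244 in wild type and 0.120 in R141C replicate 1, and leaving out wild-type replicate 1 gave -0.084 in wild-type replicate 2. Chromosome 8 was the most shifted of the 19 autosomes on 4 arrays, namely replicate 1 of wild type at both days and replicate 2 of R141C at both days. On wild-type replicate 2 at day 6 it ranked 12.

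**Figure D1:**
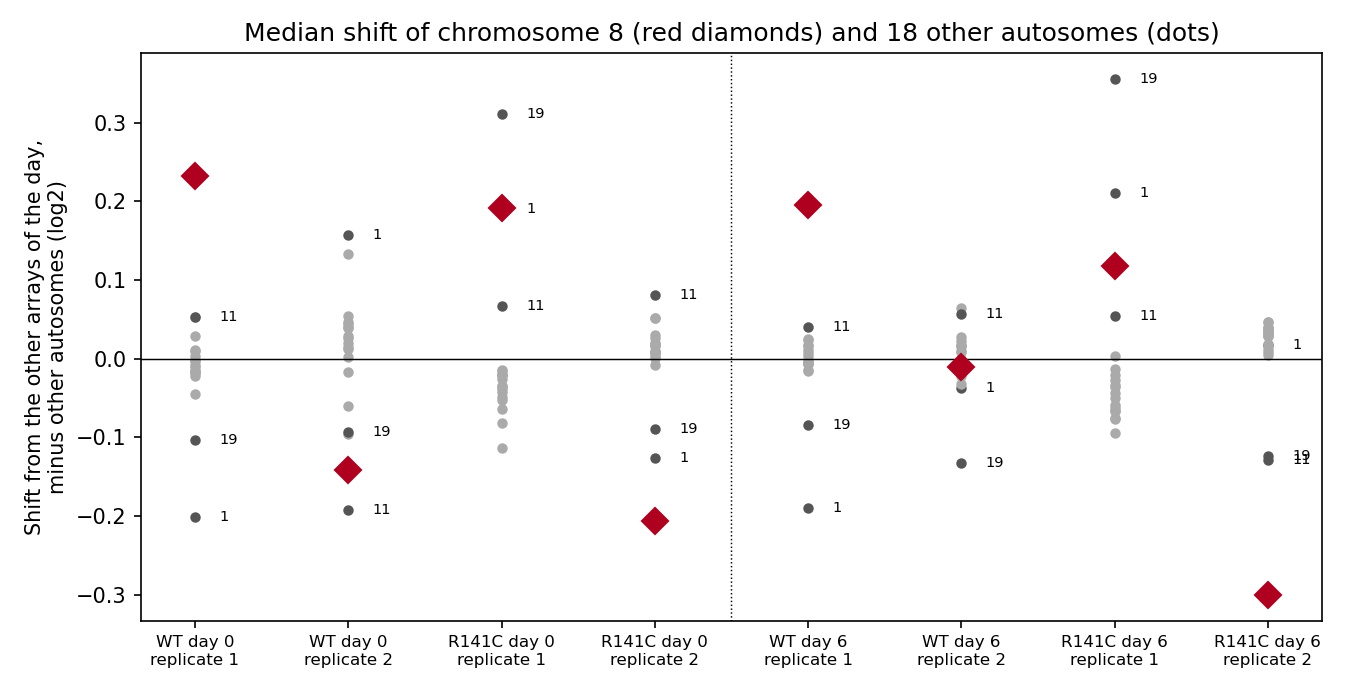
Each column is 1 array, and the vertical axis is the median log2 shift of a chromosome's genes from the other 3 arrays of the day, minus that of the other autosomes. Red diamonds are chromosome 8, dots are the 18 other autosomes, and chromosomes 1, 11 and 19 carry their number; the diamonds run from 0.232 in wild-type replicate 1 at day 0 to -0.300 in R141C replicate 2 at day 6.

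Other chromosomes moved on some of these arrays, in other patterns. Chromosome 19 stood at 0.311 and 0.356 on replicate 1 of R141C at day 0 and day 6, above chromosome 8 on the same arrays. Chromosome 1 stood at -0.201 and -0.190 on replicate 1 of wild type at day 0 and day 6, and at 0.190 and 0.211 on replicate 1 of R141C. On wild-type replicate 2 at day 0, chromosome 11 (-0.192) and chromosome 1 (0.158) were shifted further than chromosome 8.

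Within the groups, the chromosome 8 genes were higher in replicate 1 by a median of 0.263 in wild type at day 0 (1.20-fold), 0.288 in R141C at day 0 (1.22-fold), 0.158 in wild type at day 6 (1.12-fold) and 0.295 in R141C at day 6 (1.23-fold). These differences, and those given for chromosome 8 genes below, are relative to the median of the other autosomes' genes. The other 18 autosomes ranged from -0.258 (chromosome 1) to 0.181 (chromosome 11) in wild type at day 0 and from -0.068 to 0.282 in R141C at day 0. They ranged from -0.105 to 0.030 in wild type at day 6. In R141C at day 6 they ranged from -0.105 to 0.335, and chromosome 19 was the 1 autosome above chromosome 8. Chromosome 8 thus had the difference of the largest size in 3 of the 4 groups and the second in the fourth. At day 0 its lead was narrow, over chromosome 1 in wild type (-0.258) and chromosome 19 in R141C (0.282). The wild-type difference at day 6 was the smallest of the 4, but the other autosomes lay closest together there, with a median absolute difference of 0.009.

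As a group mean, the shift of chromosome 8 was 0.045 ± 0.264 (SD, n = 2) in wild type and -0.007 ± 0.281 (SD, n = 2) in R141C at day 0. The day 6 values were 0.093 ± 0.146 (SD, n = 2) in wild type and -0.091 ± 0.296 (SD, n = 2) in R141C. At day 0 the difference between genotypes was smaller than the SD of either group. At day 6 it was larger than the SD of wild type and smaller than that of R141C, and the arrays of the 2 genotypes overlapped at both days.

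Cell type markers also moved between replicates, in directions that differed between the groups (log2 signal of replicate 1 minus replicate 2). The 4 measured of 5 two-cell-like markers were higher in replicate 1 of wild type at day 0 by a median of 5.03 and lower in replicate 1 of R141C at day 0 (median -1.8), with 4 of 4 in that direction each time. In R141C at day 6 the 10 cardiomyocyte markers were lower in replicate 1 (10 of 10, median -3.63), as were the 8 fibroblast markers (8 of 8, median -2.36). The log2 of the summed cardiomyocyte signal was 3.77 in replicate 1 and 7.23 in replicate 2 of that group, against 8.51 and 8.86 in wild type. The 6 visceral endoderm markers were also mostly lower in replicate 1 there (1 of 6 higher, median -1.67). Of the 10 cardiomyocyte markers, 9 were higher in replicate 1 of wild type at day 0 (median 1.12). In R141C at day 0 it was 4 of 10 (median -0.3), and in wild type at day 6 1 of 10 (median -0.29). The fibroblast markers gave 7, 1 and 1 of 8 in the same order of groups, with medians of 1.44, -1.52 and -0.83. The 5 blood markers were higher in replicate 1 of R141C at day 6 (5 of 5, median 1.39) and lower in replicate 1 of wild type at day 6 (0 of 5 higher, median -1.28). ES cell markers were lower in replicate 1 of wild type at day 0 (median -0.57, 3 of 10 higher) and higher in replicate 1 of R141C at day 0 (median 0.37, 10 of 10 higher). The ES cell markers fitted the labelled days, since the log2 of their summed signal was 8.73 to 9.47 at day 0 and 6.10 to 6.85 at day 6. The cardiomyocyte markers did not on every array. Their summed signal at day 0 was 4.16 and 2.59 in wild type and 4.03 and 5.29 in R141C (replicate 1, then replicate 2). The 3.77 of R141C replicate 1 at day 6 lay within that range. The part of these cell types in the chromosome 8 differences was not tested.

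The difference lay along the whole of chromosome 8. The chromosome was divided into bins of 10 Mb, of which 13 held at least 10 genes (27 to 161 genes). All 13 were higher in replicate 1 in all 4 groups, against 17 of 240 bins on the other autosomes (7.08%). In wild type at day 0 the bins ranged from 0.145 (50 to 60 Mb, 27 genes) to 0.435 (20 to 30 Mb, 104 genes). In R141C at day 0 they ranged from 0.146 (20 to 30 Mb) to 0.428 (80 to 90 Mb, 117 genes). The bin that was highest in wild type was therefore the lowest in R141C. At day 6 they ranged from 0.124 to 0.210 in wild type and from 0.187 to 0.392 in R141C.

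**Figure D2:**
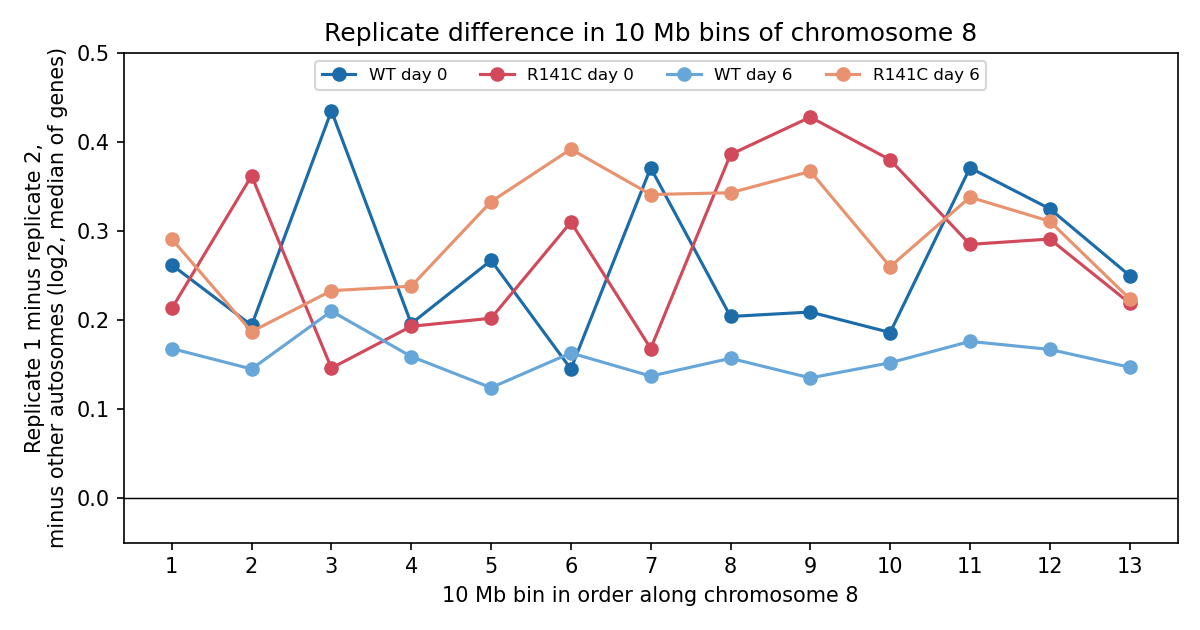
The horizontal axis is the 13 bins of 10 Mb in order along chromosome 8, and the vertical axis is the median over genes of replicate 1 minus replicate 2, minus the other autosomes, on the log2 scale. Each line is a group (blue, wild type; red and orange, R141C); every point lies above 0, between 0.124 and 0.435, and the wild-type day 6 line is the flattest.

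On single arrays, the 13 bins of R141C replicate 2 at day 6 lay between -0.384 and -0.227, all past a shift of 0.2 downward, against 1 of 240 bins elsewhere. In wild-type replicate 1 at day 0 they lay between 0.163 and 0.294, with 11 of 13 past 0.2 against 1 of 240 elsewhere. In wild-type replicate 2 at day 6 they lay between -0.078 and 0.050. Over all 8 arrays, 43 of 104 chromosome 8 bins were past 0.2 in either direction (41.3%), against 5.47% of the bins of other autosomes.

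The shift was a move of most genes by a little and not of a few by much. In wild-type replicate 1 at day 0, 907 of 1141 genes (79.5%) lay above the median of the other autosomes, and the middle 50% of them ran from 0.045 to 0.406. In that array 443 of 1141 genes (38.8%) were past 0.3 upward, against 12.3% on the other autosomes. In R141C replicate 2 at day 6, 216 of 1141 genes (18.9%) lay above the other autosomes' median, and 571 (50%) were past 0.3 downward, against 16.1%. The interquartile range of the genes was 0.450 on that array, against 0.363 on the other autosomes.

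Group by group, 74%, 76.4%, 79.6% and 73.9% of the chromosome 8 genes were higher in replicate 1 (wild type day 0, R141C day 0, wild type day 6 and R141C day 6). Shares of that size by themselves put many genes above 0 in all 4 groups. Of the 1141 genes, 458 (40.1%) were higher in replicate 1 in all 4 groups, against 9.78% of the genes on the other autosomes. Lower in all 4 groups were 16 genes (1.40%), against 8.14%. Another 371 (32.5%) were higher in 3 groups. By chromosome, the share higher in all 4 groups was next largest on chromosome 19 (15.6%) and chromosome 11 (13.6%), and lay between 6.93% and 11.8% on the remaining 16 autosomes. Across the 1141 genes the size of the difference was largely unshared with wild type at day 0, which correlated with the other 3 groups at -0.10 to 0.00 (Pearson's r, given as a description). The other pairs of groups correlated at 0.121 to 0.309, highest between the R141C groups. With any 1 group left out, 46.1% to 52% of chromosome 8 genes were higher in the other 3, against 13% to 18.4% elsewhere.

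**Figure D3:**
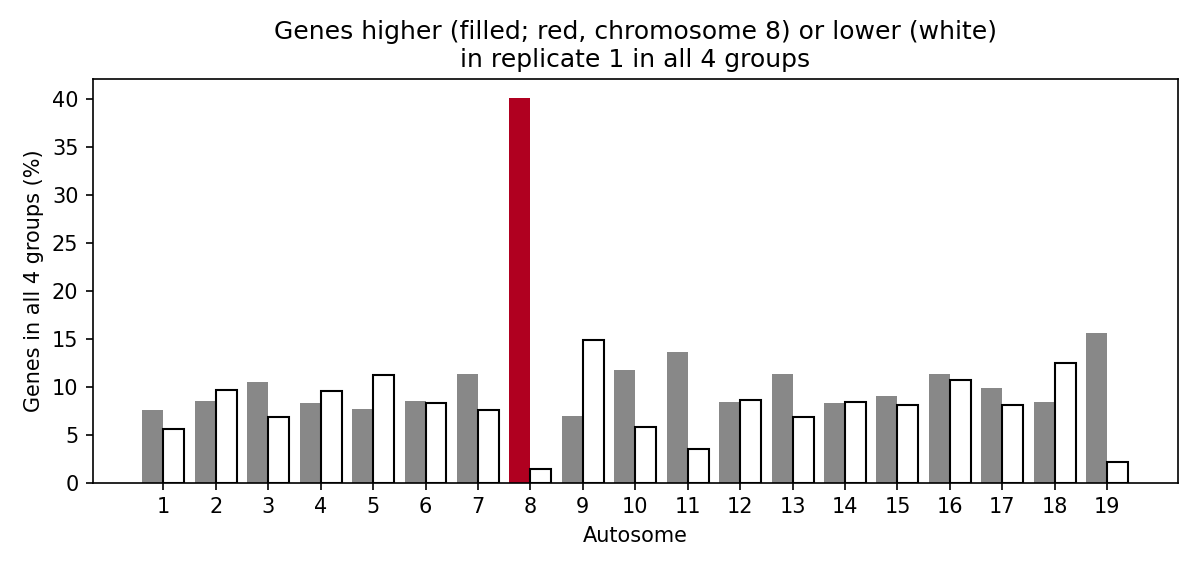
For each autosome, the filled bar gives the percent of genes whose replicate 1 minus replicate 2, relative to the other autosomes, was above 0 in all 4 groups, and the white bar the percent below 0 in all 4. Chromosome 8 (red) reaches 40.1% and 1.40%, and the next filled bar, chromosome 19, 15.6%.

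The difference was larger in protein-coding genes than in the other classes of probe. Set against protein-coding genes of the other autosomes, the 762 protein-coding genes of chromosome 8 were higher in replicate 1 by a median of 0.347, 0.442, 0.195 and 0.432 (wild type day 0, R141C day 0, wild type day 6 and R141C day 6). In all 4 groups 387 of them were higher (50.8%, against 8.44%). The 174 noncoding intervals, set against intervals elsewhere, gave 0.141, 0.083, 0.075 and 0.025, and 37 were higher in all 4 groups (21.3%, against 11.2%). The 205 other transcripts gave 0.081, 0.063, 0.063 and 0.070, with 43 higher in all 4 groups (21.0%, against 11.2%).

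The classes differ in brightness, since the median log2 signal was 1.38 for protein-coding genes, -2.57 for intervals and -0.84 for other transcripts. All autosomal genes were therefore split into 3 classes of equal size by mean signal. In the dimmest class, the 164 protein-coding genes of chromosome 8 gave 0.235, 0.305, 0.181 and 0.334, and the 115 intervals 0.140, 0.115, 0.104 and 0.094. In the brightest class, the 324 protein-coding genes gave 0.373, 0.443, 0.191 and 0.447. The 66 other transcripts of that class gave -0.008, 0.030, 0.019 and -0.034, near 0 in every group. Split in the same way by the GC content of the probe, the class with the lowest GC (median 35% on chromosome 8 and elsewhere) gave 0.330, 0.401, 0.202 and 0.414, and that with the highest (median 55% on chromosome 8) gave 0.208, 0.164, 0.098 and 0.190.

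The 8 genes with a symbol whose smallest difference over the 4 groups was highest were Ccdc113, Rab11fip1, Gdf1, Pnpla6, Brf2, Pomk, Pdgfrl and Armc6, picked after their values were seen. Ccdc113 came first, with differences from 0.72 to 1.89. Pomk, a kinase that acts on O-mannosyl glycans of dystroglycan, was higher in replicate 1 by 0.44 and 0.46 at day 0 (wild type, then R141C) and by 0.44 and 0.50 at day 6. Brf2, a factor of RNA polymerase III transcription, was higher by 0.55, 0.59, 0.44 and 0.67 in the same order of groups. Pnpla6, a phospholipase, was higher by 0.47, 0.45, 0.46 and 0.74. The 8 genes lay between Pnpla6 (chr8:3544194-3544253) and Ccdc113 (chr8:98082729-98082788). Of 724 genes with a symbol, 340 were higher in all 4 groups and 5 were lower: Atp4b, Sipa1l2, Olfr373, Adam5 and Nxnl1. Atp4b, a subunit of the gastric proton pump, was the dimmest of the 5, with a mean log2 signal of -4.61.

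Genes of DNA replication, repair and the cell cycle were higher in replicate 1 in most groups. Of 27 such genes, 18, 27, 25 and 24 were higher in wild type day 0, R141C day 0, wild type day 6 and R141C day 6, with medians of 0.223, 0.584, 0.204 and 0.514. In all 4 groups 13 of 27 were higher and 0 of 27 lower. The gene lists were drawn up with results of these data known. Measured in the same way, 340 of all 724 chromosome 8 genes with a symbol were higher in all 4 groups, a share near that of the 27. That share is also the background for the lists below. Set against protein-coding genes elsewhere, it was 50.8% of the protein-coding genes on the chromosome.

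Cdt1, which loads the replicative helicase at origins, had log2 signals of 6.31 and 5.91 in wild type at day 0 (replicate 1, then 2) and 6.41 and 5.36 in R141C. On day 6 it had 5.61 and 5.49 in wild type and 6.19 and 5.6 in R141C. Replicate 1 was the higher of every pair. Relative to the other autosomes these are differences of 0.42, 0.91, 0.14 and 0.51. Hmgb2, a high mobility group chromatin protein of dividing cells, read 6.81 and 6.54, then 7.0 and 6.03 at day 0, and 6.63 and 6.60, then 6.88 and 6.41 at day 6, in the same order. Its difference was largest in R141C at day 0, at 0.84 (1.79-fold). Mcm5, a subunit of the replicative helicase, read 6.33 and 6.39 in wild type at day 0, and there replicate 1 was not the higher array (-0.05). In R141C it read 6.61 and 5.42 at day 0 and 5.74 and 4.95 at day 6, differences of 1.06 and 0.72.

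Of 19 genes of the ribosome and translation, 15 were higher in replicate 1 in all 4 groups, with medians of 0.263, 0.717, 0.129 and 0.605. Rpl13, a protein of the large ribosomal subunit, read 8.05 and 7.86 in wild type and 8.33 and 7.92 in R141C at day 0. The day 6 arrays read 8.22 and 8.21, then 8.82 and 8.22, and the differences were 0.21, 0.29, 0.03 and 0.53. Ribosomal protein genes have many processed copies in the genome, so probes for them may read more than 1 locus. Eif4ebp1, which holds back cap-dependent translation, was higher by 0.02, 0.46, 0.29 and 0.35.

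Of 16 mitochondrial genes, 13 were higher in replicate 1 in all 4 groups, with medians of 0.458, 0.506, 0.097 and 0.423. Cox4i1, a subunit of cytochrome c oxidase, read 7.30 and 7.01 in wild type and 7.45 and 6.85 in R141C at day 0, and 7.04 and 6.96, then 7.43 and 6.78 at day 6. Its differences of 0.31, 0.46, 0.10 and 0.57 followed those of the chromosome, small in wild type at day 6 and larger elsewhere. Tomm20, an import receptor of the outer membrane, was higher by 0.70, 0.48, 0.05 and 0.25. Ndufa13, a complex I subunit, was higher by 0.31, 0.17, 0.06 and 0.43. Slc25a4, the adenine nucleotide carrier of heart and muscle, read 7.04 and 6.20 in wild type and 6.97 and 7.13 in R141C at day 0. At day 6 it read 7.59 and 7.63 in wild type and 7.73 and 7.38 in R141C, so its replicates differed in direction between groups.

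Among 18 genes of chromatin, splicing and protein turnover, 11 were higher in replicate 1 in all 4 groups, with medians of 0.426, 0.410, 0.134 and 0.516. Prmt7, an arginine methyltransferase, read 6.02 and 5.49 in wild type and 6.29 and 5.16 in R141C at day 0. Its day 6 signals were 5.69 and 5.53 in wild type and 6.15 and 5.20 in R141C. All 4 replicate 1 arrays were above all 4 replicate 2 arrays, and the R141C replicates differed 2-fold at day 0 and 1.83-fold at day 6. Sf3b3, a spliceosome subunit, was higher by 0.26, 0.33, 0.19 and 0.57, and Usp10, a deubiquitinase, by 0.39, 0.53, 0.07 and 0.48. Sin3b, a corepressor scaffold, was higher by 0.94, 0.54 and 0.55 in 3 groups and stood at -0.05 in wild type at day 6.

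Klhdc4, a kelch domain protein, had one of the widest spans among bright genes. It read 6.01 and 5.46 in wild type and 6.02 and 4.43 in R141C at day 0, and 5.02 and 4.87, then 5.42 and 3.6 at day 6. Its replicate 2 arrays of R141C were the lowest of their days, with replicate 1 higher 2.75-fold at day 0 and 3.37-fold at day 6.

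**Figure D4:**
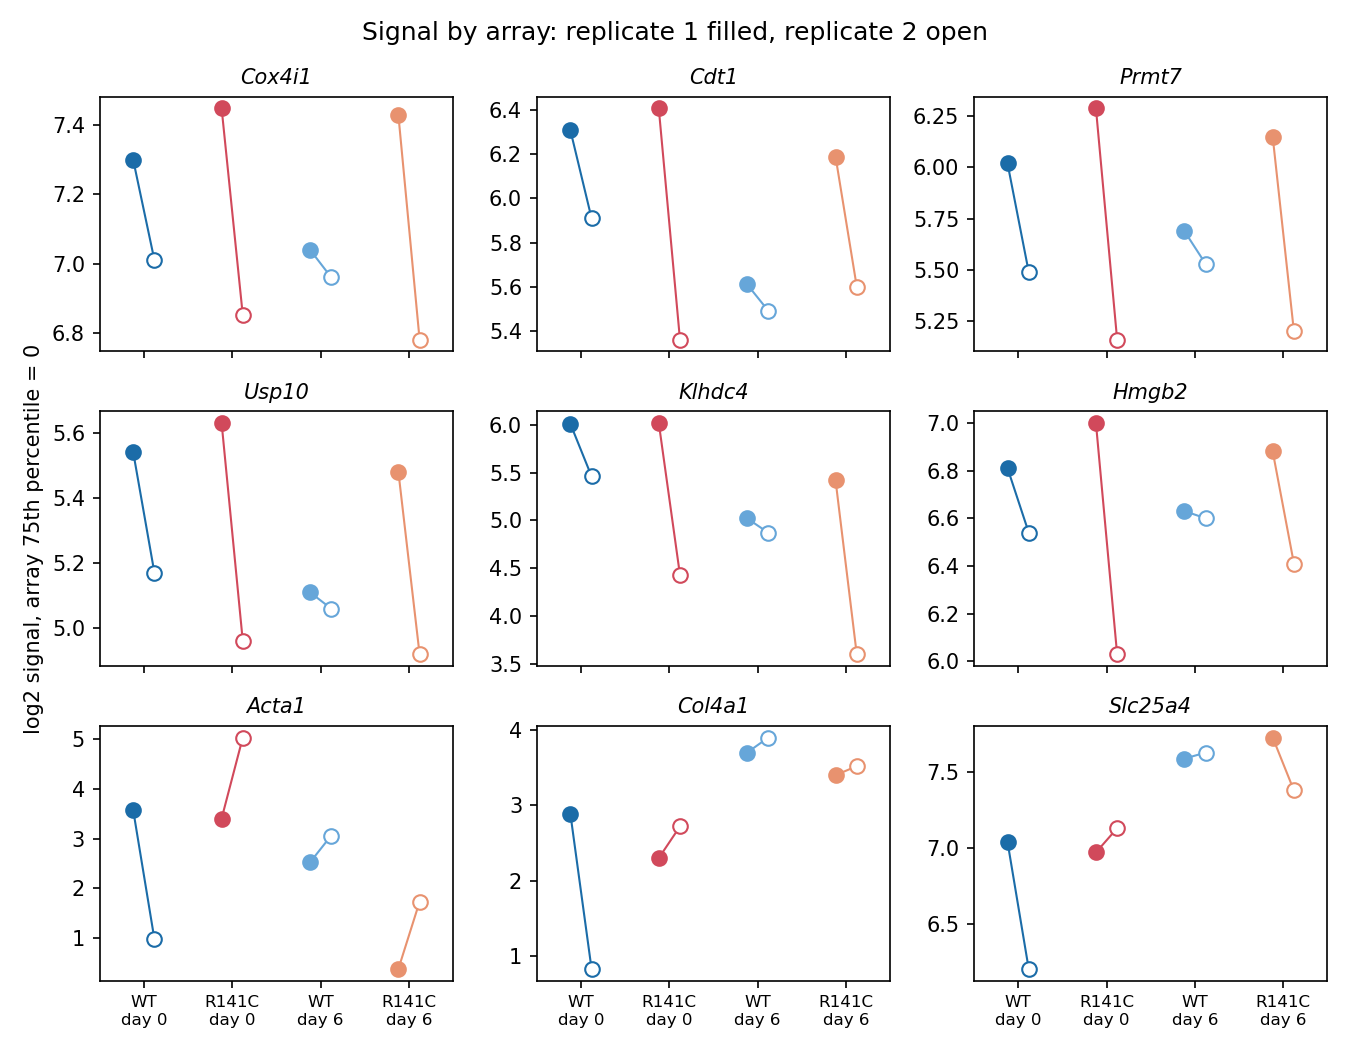
Each panel is a chromosome 8 gene, with log2 signal (75th percentile of the array set to 0) on the vertical axis and the 4 groups along the horizontal axis; filled circles are replicate 1, open circles replicate 2, and a line joins the pair. In the upper 6 panels the filled circle is the higher of every pair, while in Acta1, Col4a1 and Slc25a4 the direction differs between groups.

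Heart, vessel and mesoderm genes had no direction common to the 4 groups. Of 22 measured, 4 were higher in replicate 1 in all 4 groups, with medians of 0.948, -0.438, 0.067 and 0.006. In wild type at day 0 most were higher in replicate 1 (19 of 22), against 9, 13 and 11 in the other groups, in the same order. Acta1, the skeletal muscle alpha-actin, read 3.57 and 0.98 in wild type and 3.40 and 5.03 in R141C at day 0, and 2.52 and 3.06, then 0.38 and 1.73 at day 6. Replicate 1 was thus higher in wild type at day 0 (6.10-fold) and lower in the other 3 groups. Col4a1, a basement membrane collagen, read 2.89 and 0.83, then 2.30 and 2.72 at day 0, and 3.70 and 3.90, then 3.40 and 3.52 at day 6. Zfpm1, the GATA cofactor Fog1, was higher by 1.12 in wild type at day 0 and stood at 0.14, -0.15 and 0.56 in the others.

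Of 11 stem cell and adhesion genes, 2 were higher in all 4 groups, and of 17 stress, oxygen and metal response genes, 6. Cdh1, the epithelial cadherin, differed by 0.96, -0.03, 0.36 and -0.64, and Irs2, an adaptor of insulin signalling, by 1.36, -0.27, -0.14 and 1.13. Klf2, a stem cell factor at day 0, read 5.11 and 5.14 in wild type and 5.33 and 4.56 in R141C. Mt2, a metallothionein, was higher by 0.13, 1.06 and 0.27 in 3 groups and stood at -0.13 in R141C at day 6. Prdx2, a peroxiredoxin, was higher by 0.50, 0.44 and 0.28 in all groups but wild type at day 6 (-0.17).

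On the arrays with the largest shift of each day, the genes furthest out were mostly dim. Upward on wild-type replicate 1 at day 0 these included Adam32 (2.09), Sdr42e1 (1.81), Hhip (1.74) and Ushbp1 (1.48), and downward Bst2 (-0.83), Fut10 (-0.65), Slc9a5 (-0.63), Nkd1 (-0.57) and Vps35 (-0.51). Sdr42e1 read -0.64 and -4.17 in wild type and -1.04 and -2.07 in R141C at day 0. On R141C replicate 2 at day 6 the furthest upward included Defa23 (1.64), Hhip (1.32), Cbln1 (1.06) and Gas6 (1.0). The furthest downward were Klf1 and Npy1r (-1.69 each), Mfap3l (-1.64), Smpd3 (-1.57) and Klhdc4 (-1.51). Hhip, which binds and restrains hedgehog ligands, read -3.41 in replicate 1 and -0.53 in replicate 2 of that group. Defensin genes such as Defa23 are near-identical copies in a cluster, and which copy such a probe reads is uncertain.

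The comparison of genotypes asked which genes differ between R141C and wild type, and it called none on chromosome 8. At day 0, limma called 0 of 1141 chromosome 8 genes and 1 of 21201 genes tested (0.00472%). At an unadjusted p under 0.05 there were 44 chromosome 8 genes among 998 genes. The median difference, R141C minus wild type, was -0.03 over chromosome 8 and 0.02 over the other autosomes. Kbtbd11 had the smallest p among those lower in R141C, at 2.55 and 3.17 in wild type and 1.61 and 0.87 in R141C. The difference of -1.62 (SE 0.33) had a limma adjusted p of 0.998. Next were Cdyl2, a chromodomain protein (-1.18, SE 0.29), and Rbl2, a pocket protein of the cell cycle (-1.18, SE 0.34). On the other side were Adam26b (0.86, SE 0.25), Efnb2, an ephrin of arteries (0.94, SE 0.28), and Trim67 (1.40, SE 0.50), all with an adjusted p of 0.998.

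At day 6 limma called 0 of 1141 chromosome 8 genes and 0 of 21201 genes (0%), with 84 chromosome 8 genes among 1600 genes at an unadjusted p under 0.05. Smpd3, the neutral sphingomyelinase that makes ceramide at membranes, came nearest. It read -0.46 and -0.78 in wild type and -3.87 and -3.27 in R141C, while all 4 arrays of day 0 lay between -3.47 and -3.28. Wild type at day 6 thus stood apart from every other array. The difference was -2.95 (SE 0.25, 7.73-fold lower), with a limma adjusted p of 0.0589 that spanned 0.0202 to 0.893 over 15 alternatives. It was called under 3 of them: normexp background correction (adjusted p 0.0407), a filter on both arrays of at least 1 group (0.0296) and leaving out R141C day 6 replicate 2 (0.0202). Prmt7, whose probe lies 1226 bases away on the opposite strand, did not follow it. Vat1l (-1.54, SE 0.24) and Gnao1, the alpha subunit of the G protein Go (-2.12, SE 0.34), were next, both with an adjusted p of 0.235. Upward were Gas6, a ligand of the TAM receptor kinases (1.09, SE 0.26, adjusted p 0.431), Nwd1 (0.78, SE 0.20, adjusted p 0.471) and Tdrp (0.87, SE 0.24, adjusted p 0.497). The median difference was -0.06 over chromosome 8 and 0.07 over the other autosomes. For whether the genotype effect differed between the days, limma called 0 of 1141 and 0 of 21201 genes (0%), with 59 chromosome 8 genes among 1078 at an unadjusted p under 0.05. Smpd3 was first there too (-3.0, SE 0.35, adjusted p 0.289).

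In the main fit, chromosome 8 genes changed with differentiation no more often than genes at large. In wild type, 157 rose and 93 fell from day 0 to day 6 (250 of 1141, 21.9%), against 5123 of 21201 genes tested. Of all genes 12.2% rose and 12% fell. In R141C 88 rose and 63 fell (151 of 1141, 13.2%), against 3433 of all genes, with 8.25% rising and 7.94% falling. In both genotypes the share of chromosome 8 genes that fell was below that of all genes in this fit. With the shift of each chromosome's median on each array taken out, 172 rose and 135 fell in wild type. In R141C 100 rose and 84 fell. The count of falls thus turned on that shift, and it is not read as a trait of the chromosome. The overlap of calls was counted for chromosome 8 genes alone. It therefore has no background over all genes and is not read as a trait of the chromosome. Over all genes too, wild type had more calls than R141C. Both genotypes called 124 of the same genes (49.6% of the wild-type calls and 82.1% of the R141C calls), of which 76 rose and 48 fell in both. These counts lean on single arrays, with 84 calls in wild type without wild-type day 6 replicate 2, 91 without replicate 1 and 145 without wild-type day 0 replicate 2. For R141C, leaving out its first day 0 array gave 64 calls, leaving out its first day 6 array 91, and leaving out either wild-type day 6 array 94. The balance of rises and falls in R141C turned without its second day 0 array (43 rose and 62 fell) and without its first day 6 array (43 rose and 48 fell). Leaving out an array also lowers the residual degrees of freedom for every gene tested, and the share called over all genes is not given for these fits. The drops are therefore not read as a trait of chromosome 8. With all 8 arrays, the median change was 0.00 in wild type and 0.01 in R141C, against -0.06 and 0.00 over the other autosomes.

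Mesoderm and blood regulators were among those that rose most. Foxf1, a forkhead factor of the lateral mesoderm, read -2.75 and -5.48 in wild type at day 0 and 3.71 and 4.14 at day 6, and -2.91 and -2.73, then 4.33 and 4.80 in R141C. It rose by 8.04 (SE 0.76, adjusted p 0.000833) in wild type and 7.38 (SE 0.76, adjusted p 0.00172) in R141C. Lyl1, a helix-loop-helix factor of blood progenitors, rose by 4.87 (SE 0.61) and 6.49 (SE 0.61), and its R141C replicates at day 6 read 3.86 and 1.75, on the arrays between which the blood markers differed by a median of 1.39. Cbfa2t3, a corepressor of blood cells, rose by 4.61 and 4.82. Nrp1, a co-receptor for VEGF and semaphorins, rose by 6.16 and 4.89 (SE 0.72 each). Irx3, an Iroquois factor, rose by 6.13 and 3.40 (SE 0.62 each) and read 4.26 and 3.99 in wild type and 1.76 and 2.28 in R141C at day 6. Its adjusted p in R141C was 0.0133, and 0.0578 to 0.063 without either R141C day 0 array or R141C day 6 replicate 2. Ednra, an endothelin receptor, rose by 5.69 and 3.5 (SE 0.35 each), with 1.96 and 1.93 in wild type and 0.12 and 0.70 in R141C at day 6. Neither Irx3 nor Ednra was called for genotype at day 6 or for the difference between the days. Dok4, a docking protein of receptor kinases, rose by 3.82 and 3.98 (SE 0.22 each), with day 6 arrays between 3.52 and 3.79. Gnao1 rose by 4.6 (SE 0.34) in wild type. Of the 22 heart, vessel and mesoderm genes, 10 rose and 1 fell in each genotype. Probes for Defa2 and Defa3 also rose, with the uncertainty over copies given above.

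Among the largest falls was that of Zfp42. Zfp42 read 6.14 and 6.11 in wild type and 6.21 and 5.09 in R141C at day 0, and 1.22 and 1.03, then 1.41 and 0.99 at day 6. Its change was -5.0 (SE 0.36, adjusted p 0.000334) in wild type and -4.45 (SE 0.36, adjusted p 0.000836) in R141C. Its neighbours Triml1 (-5.38, SE 0.76) and Triml2 (-4.59, SE 0.65) fell in wild type. In R141C their changes were -2.98 (adjusted p 0.0388) and -2.65 (adjusted p 0.0347), but leaving out replicate 1 of the day 0 pair moved the adjusted p to 0.187 and 0.171, and leaving out replicate 2 of the day 6 pair to 0.142 and 0.123. Both genes also missed the threshold without either wild-type day 6 array (0.0715 and 0.0628), and Triml1 without replicate 2 of the day 0 pair (0.0505). The R141C day 6 replicates of Triml1 read -1.34 and -2.87. Clgn, a chaperone of germ cells, fell in both genotypes (-3.77 and -3.4, SE 0.45 each). So did Nqo1, a quinone reductase (-2.81 and -2.65, SE 0.22 each), and Adrb3, an adrenergic receptor (-2.59 and -2.64, SE 0.33 each). Among the largest falls in wild type were also Adad2 (-3.14), Gdf15 (-2.91), Cdyl2 (-2.81) and Il34 (-2.65). The adjusted p of Adad2 was 0.0565 without wild-type day 6 replicate 2. In R141C they included Tubb3, a neuronal tubulin (-2.84, SE 0.30), Snai3 (-2.79), Vat1l (-2.74) and Slc5a5, the iodide transporter (-2.68). Slc5a5 had an adjusted p of 0.0175, and of 0.0608 to 0.0967 without R141C day 0 replicate 1 or either R141C day 6 array. Of the 11 stem cell and adhesion genes, 1 rose and 3 fell in wild type, and 1 rose and 4 fell in R141C. Of the 27 replication genes 1 rose in each genotype, and of the 19 ribosome and translation genes 1 fell in wild type.

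**Figure D5:**
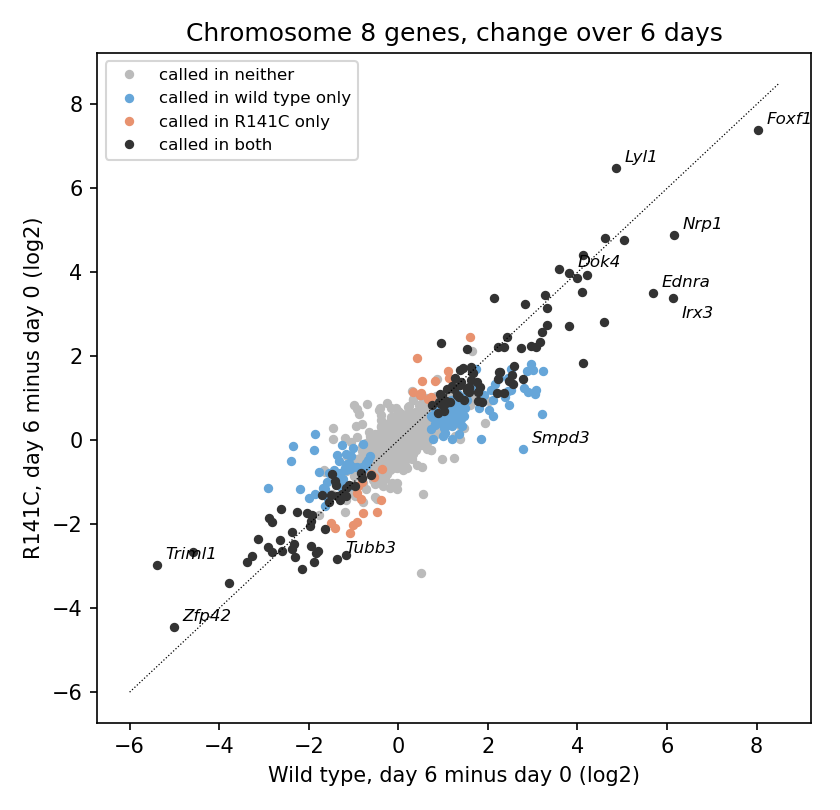
Each point is 1 of 1141 chromosome 8 genes, with the log2 change from day 0 to day 6 in wild type on the horizontal axis and in R141C on the vertical axis; the dotted line marks equal change. Black points (124 genes) were called in both genotypes, blue in wild type alone (126) and orange in R141C alone (27); Foxf1 is the highest, at 8.04 and 7.38. Over all genes tested, 5123 were called in wild type and 3433 in R141C, and their overlap was not counted.

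The replicate differences of chromosome 8 entered these tests as spread. The median residual SD was 0.337 for chromosome 8 genes and 0.25 for the other autosomes' genes. When the shift of each chromosome's median on each array was taken out, the median residual SD was 0.256 and 0.247. For this, the shift was measured from each gene's mean over all 8 arrays. A shift of a chromosome with day or genotype was therefore taken out too, besides that between replicates. With these shifts taken out, 307 chromosome 8 genes were called over time in wild type, 241 of them among the 250. In R141C 184 were called, 138 of them among the 151, while the genotype comparisons called 0 chromosome 8 genes. Over all 21201 genes the calls grew too, from 5123 to 5402 in wild type and from 3433 to 3603 in R141C.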

How the data were processed

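Cy3-labelled cRNA of 8 cultures was measured on single-colour arrays. The deposited intensity values (processed signal, and mean and background signal for an alternative) came from Agilent Feature Extraction, 11.5.1.1 per the file headers and 10.5.1.1 per the submitters' processing notes. The processed signal is an intensity with background subtracted on the array, per the file headers. The deposited well-above-background and outlier flags (other) are 0 or 1. The deposited series matrix, used as an alternative, holds log2 values whose normalization is not given in the sources used here. Probe positions are mm9, per the file headers.

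Outlier spots (131 to 251 of 62976 per array) and 98 probes without a value were left out, and no spot was saturated. Log2 of the processed signal was shifted to a 75th percentile of 0. Between 30973 and 39166 probes per array were well above background (55.7% to 70.5%). The number of arrays limits the precision. With R 4.3.3, limma 3.58.1 fitted 4 group means to 21201 genes of all chromosomes (4 residual and 3.19 prior degrees of freedom), with two-sided tests and Benjamini-Hochberg adjustment over all genes, called at an adjusted p under 0.05. The data.table package was version 1.17.8, and matplotlib 3.10.9 under Python 3.11.15 made the plots. Both steps were tested on simulated data.

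Named genes were the 10 brightest members, the 5 furthest each way on the most shifted array of each day, up to 10 calls each way per comparison (or 3 each way by p) and up to 4 of the brightest per list. Some genes that this rule names are not reported here. The chromosome, lists and rules were chosen with earlier results of these data known. Alternatives were quantile, median and normexp (offset 50) processing, the deposited values, other filters and probe choices, classes of brightness and GC, other bins, a block for the replicate number, and 1 array left out at a time.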

Additional observations from a re-analysis of the deposited data

How the results depend on the processing

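The shifts of chromosome 8 kept their sign under all 17 alternatives on 7 arrays, and wild-type replicate 2 at day 6 ranged from -0.128 to 0.051. The replicate differences kept their sign under 19 alternatives, from 0.025 to 0.442. The share of genes higher in replicate 1 in all 4 groups was 21.3% in intervals and 21.0% in other transcripts, against 11.2% elsewhere for each. In the dimmest of 3 classes it was 24.4%, and the share among dim genes of the other autosomes is not given. At day 6, 1 gene was called for genotype with normexp (Smpd3, adjusted p 0.0407). The filter on both arrays of at least 1 group gave 2 calls (Smpd3, adjusted p 0.0296, and Ces2h, 4.11, adjusted p 0.0253). Ces2h was not among the genes of the main filter, which asked for signal well above background on every array. It was admitted by the looser filter alone, and its 4.11 may include signal near background. The Ces2h call is therefore not read as a difference between genotypes.

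Leaving out 1 array gave 0 to 1 genotype calls at day 6, the 1 being Smpd3 without R141C replicate 2. It gave 84 to 262 calls over time in wild type and 64 to 168 in R141C, the fewest without wild-type day 6 replicate 2 and R141C day 0 replicate 1. With only the arrays compared there were 98 calls over time in R141C, and 29 without both R141C replicate 1 arrays, a choice made after seeing the data. For these fits the share called over all genes is not given, so the counts are not read as a trait of chromosome 8. With the replicate block there were 288 calls over time in wild type and 180 in R141C, with 5254 and 3529 over all genes. The labels do not say whether replicate numbers pair the cultures, and the main fit did not pair them. Across chromosome 8 genes the replicate deviations correlated at 0.309 between the R141C groups and at 0.00 between the wild-type groups (0.428 and -0.015 on the other autosomes). Such a correlation leaves out a shift shared by all the genes, so it cannot decide whether the numbers pair the cultures.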
